A study of Mus musculus with 13 samples.

Results

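Glutathione transferases and the enzymes of antioxidant defence were followed as 47 of the 22609 genes that each table of the series lists. The members were chosen by symbol, with earlier results of these data known. Of these, 21 are glutathione transferases, taken as the genes whose symbol is Gst plus a class letter and a number. Others are the regulator pair Nfe2l2 and Keap1, the enzymes Nqo1 and Hmox1, and 4 genes of glutathione synthesis and recycling. Further members are 3 genes of the thioredoxin system, catalase with 3 superoxide dismutases, 6 peroxiredoxins and 5 glutathione peroxidases. The choosing rule uses no measured value.

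The series holds 13 mRNA libraries of C57BL/6 mice, 7 from visceral fat and 6 from transplanted E0771 tumours, E0771 being a mouse mammary tumour line. The fat came from hosts after HFD feeding, 4 libraries labelled KO and 3 labelled WT. Of the tumours, 3 grew in hosts labelled KO and 3 in hosts labelled WT, and the labels give no diet for them. KO stands for a host lacking PD-L1 in fat, per the series title, whereas the tumour cells are not labelled as altered. The labels give neither the driver of the deletion nor age, sex or pooling, and nothing says that replicates were separate animals, so p-values speak of the spread among libraries, which may be technical. The 3 WT fat columns are numbered 1, 3 and 4, and are called by those numbers here.

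Glutathione transferases join glutathione, a small thiol peptide, to reactive and foreign compounds. Glutathione peroxidases, peroxiredoxins and catalase remove peroxides, superoxide dismutases make hydrogen peroxide from superoxide, and glutathione reductase and thioredoxin reductase keep these systems reduced with NADPH. Many of the genes are known targets of NRF2, the product of Nfe2l2, which KEAP1 marks for degradation until oxidants or electrophiles modify KEAP1. In fat, these enzymes are found both in adipocytes, where lipid aldehydes are a known substrate of the alpha class transferases, and in macrophages, where haem oxygenase 1 is known for clearing haem.

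Promoter sequence close to the start was read for the letters of the antioxidant response element, the DNA element that NRF2 binds with a small Maf partner. Its core was searched as TGACNNNGC on both strands from 250 bases before to 50 bases after each RefSeq start (GRCm38.p6). The set of windows at hand held 40 of the 47 members. Gsta4, Gstt2, Hmox1, Gclc, Gsr, Sod3 and Prdx6 had no window in it and were not searched. With TCA as the free letters the run also holds TGACTCA, the letters bound by AP-1 factors, so the search does not separate them. The run was found in 9 of the 40 members (22.5%), beside 14% of all 27025 genes and 12.4% of all 32851 windows of that length. The 9 members were Gsta3, Gstm5, Gstm7, Nfe2l2, Srxn1, Gclm, Txnrd1, Prdx1 and Sod1. The 250 bases before the start are printed for 5 of them, which cover members that rose, fell or were high in 1 library, with the match in capitals and the rest in lower case.
Prdx1: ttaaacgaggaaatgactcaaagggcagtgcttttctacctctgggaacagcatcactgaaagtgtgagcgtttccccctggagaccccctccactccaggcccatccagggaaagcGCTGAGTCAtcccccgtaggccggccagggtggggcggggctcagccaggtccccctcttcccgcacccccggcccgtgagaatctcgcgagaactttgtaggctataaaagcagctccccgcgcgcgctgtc
Gclm: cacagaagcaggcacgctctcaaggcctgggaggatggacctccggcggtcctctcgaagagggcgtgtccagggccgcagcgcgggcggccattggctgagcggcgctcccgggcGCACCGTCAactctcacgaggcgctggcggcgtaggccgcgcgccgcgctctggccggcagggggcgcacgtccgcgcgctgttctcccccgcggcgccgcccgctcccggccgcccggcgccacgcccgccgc
Txnrd1: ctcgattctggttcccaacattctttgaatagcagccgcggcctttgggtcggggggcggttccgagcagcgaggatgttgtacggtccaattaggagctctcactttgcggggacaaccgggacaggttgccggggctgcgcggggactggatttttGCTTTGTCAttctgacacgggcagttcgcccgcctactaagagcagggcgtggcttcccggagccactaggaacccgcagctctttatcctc
Nfe2l2: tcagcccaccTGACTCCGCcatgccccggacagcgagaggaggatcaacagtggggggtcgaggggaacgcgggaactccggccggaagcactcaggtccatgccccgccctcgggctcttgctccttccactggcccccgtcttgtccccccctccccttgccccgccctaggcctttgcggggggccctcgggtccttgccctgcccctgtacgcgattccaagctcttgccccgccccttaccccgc
Gsta3: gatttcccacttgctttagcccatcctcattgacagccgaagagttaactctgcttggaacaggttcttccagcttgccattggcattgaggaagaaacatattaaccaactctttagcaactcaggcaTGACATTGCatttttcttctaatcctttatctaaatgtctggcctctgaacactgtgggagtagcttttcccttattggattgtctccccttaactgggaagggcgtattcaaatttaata
These lie, in that order, at chr4:116685349-116685598 on the plus strand, chr3:122245307-122245556 on the plus strand, chr10:82858956-82859205 on the plus strand, chr2:75704664-75704913 on the minus strand and chr1:21240335-21240584 on the plus strand. Counted back from the start, the first base of the match stood at -133 in Prdx1, -134 in Gclm, -92 in Txnrd1, -240 in Nfe2l2 and -121 in Gsta3. The Txnrd1 window belongs to a start inside the span of the gene, and in Srxn1 the match followed the start, at position 29.

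Gene reads ran from 29362788 to 41534662 per fat library and from 22834259 to 34706555 per tumour library. Cd274, which encodes PD-L1, did not check the labels: normalised reads were 547.5, 521.1, 563.8 and 543.2 in fat labelled KO and 504.1, 738.6 and 527.9 in fat labelled WT, with a log2 fold change of -0.10 (limma, SE 0.15, adjusted p = 0.66). In the tumours it measured 2393, 2128 and 1555 in KO hosts and 1379, 1673 and 1658 in WT hosts (edgeR, adjusted p = 0.717). Which part of the gene was deleted, and the share of the reads that came from fat cells, are not given, so every direction below is that of the libraries labelled KO against those labelled WT. The fat groups also differed in cell type markers. All 10 adipocyte markers were lower in fat labelled KO, with summed values of 268408 to 421895 against 884281 to 1037730, and all 12 macrophage markers were higher, with sums of 400610 to 612004 against 58629 to 202938. All 8 endothelial markers fell, or 4 without WT column 3. WT column 4 stood apart in a list of epididymis genes, which summed to 1934 there and to 5.16 to 19.9 in the other fat libraries although Gpx5, the defining one, was at 0. Genes of liver summed to 9147 in WT column 4 and to 660.1 to 3353 in the other fat libraries. Keratin-bearing epithelial genes summed to 849.6 there and to 125 to 287 elsewhere. KO replicate 1 stood apart in the members themselves, as described after the groups. In such bulk tissue, fewer cells of a type and less RNA per cell cannot be told apart.

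In visceral fat labelled KO, more members fell than rose, and most that fell were glutathione transferases. Of 43 members tested with limma, 5 rose (11.6%), beside 16.8% of all 14455 genes tested, and 16 fell (37.2%), beside 17.4% of all genes. The median log2 fold change of the tested members was -0.38, and that of all genes tested was -0.00. The genes that rose were Hmox1, Srxn1, Nfe2l2, Txnrd1 and Gpx1. Those that fell were 10 transferases, Cat, Sod2, Sod3, Prdx5, Prdx6 and Gpx4. Gsta1, Gsta2, Gstm3 and Gstt4 had at most 12 reads in any library and were not tested. The count of members that rose changed with single libraries. It was 1 without WT column 3, 3 without KO replicate 2 and 8 without KO replicate 3. Txn1, Prdx1 and Prdx4 were added in the last. Over all genes tested the rises changed too, from 2430 to 1575, 1690 and 2196 in the same fits.

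**Figure D1:**
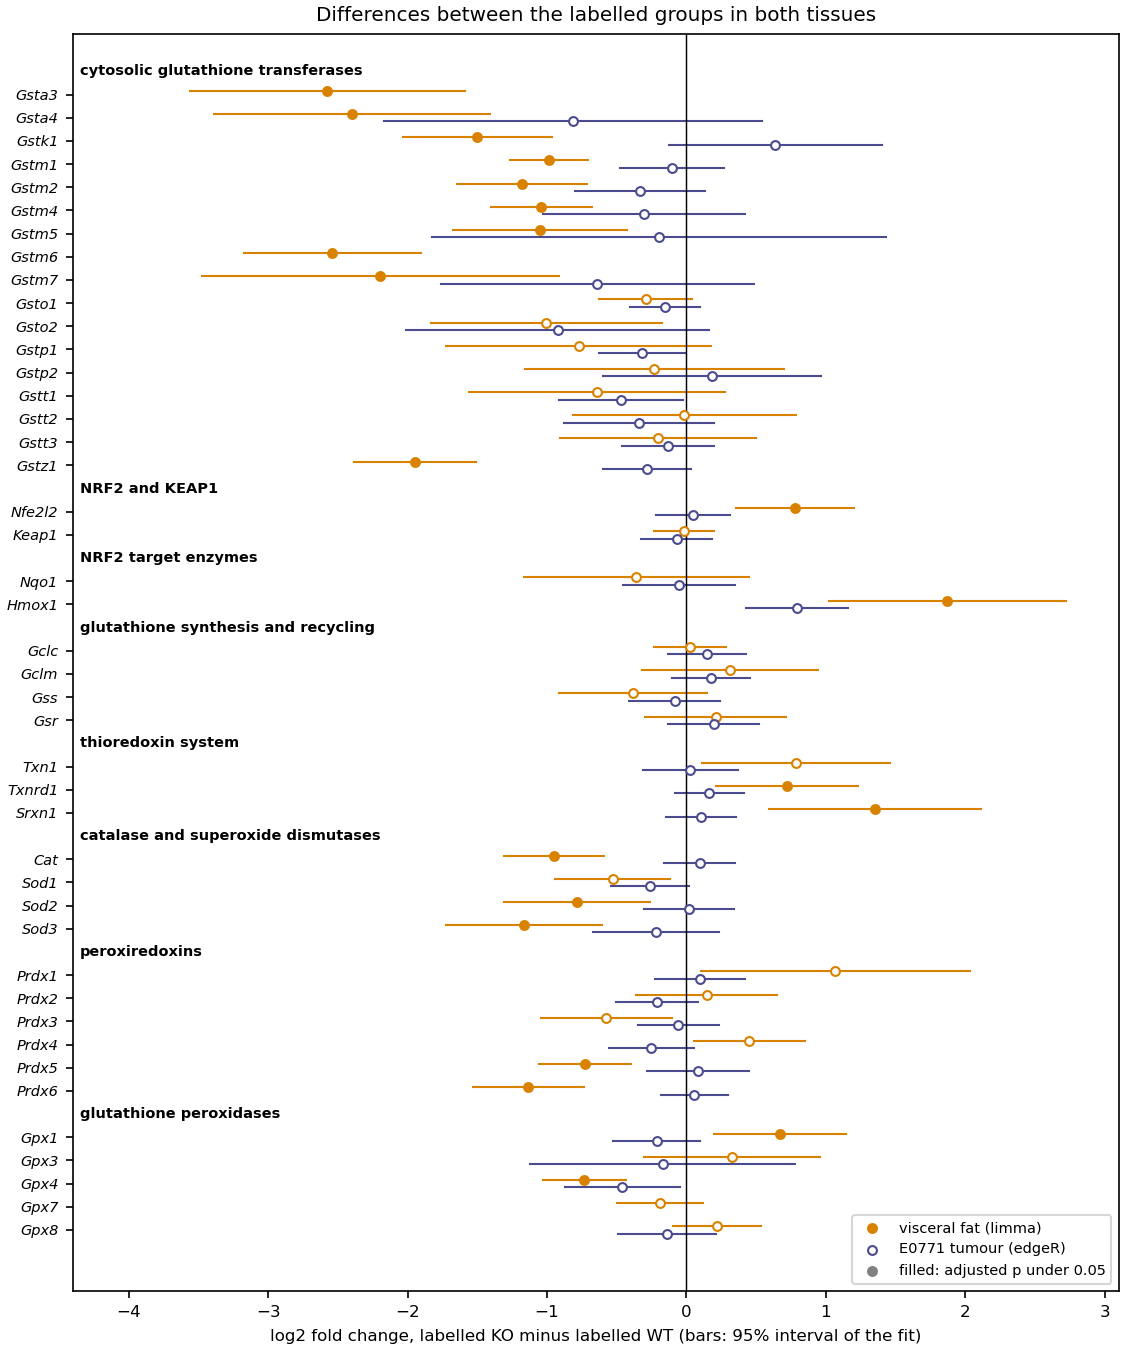
Log2 fold change of each member tested, labelled KO minus labelled WT, with its 95% interval, by role; orange is visceral fat, blue is the E0771 tumour, and filled points have an adjusted p under 0.05. The 10 filled transferases lie left of 0, the 5 filled points to the right are Nfe2l2, Hmox1, Txnrd1, Srxn1 and Gpx1, and no tumour point is filled.

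Among the member transferases, 10 of 17 tested fell, none rose, and all 17 fold changes were below 0 with a median log2 of -1.04. Gstz1, the zeta class enzyme of tyrosine breakdown also called maleylacetoacetate isomerase, was the most abundant. It measured 9163, 6010.0, 10241 and 8466 normalised reads in KO replicates 1 to 4 and 29511, 33343 and 33498 in WT columns 1, 3 and 4. The highest library labelled KO was thus far below the lowest labelled WT, and Gstz1 fell by 1.95 on the log2 scale (limma, SE 0.19, adjusted p = 0.000909). The gene (chromosome 12, 87147165 to 87164723, GRCm38) shares exon bases with Pomt2, and the counting of such reads is not given.

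The mu class genes lie side by side on chromosome 3, from Gstm5 at 107895821 to Gstm4 at 108044894 in GRCm38, and all 6 that could be tested there fell. Gstm1, the most abundant of them, measured 5438, 4142, 5063 and 4909.8 in the KO replicates and 9301, 9869.7 and 9728 in the WT columns. Its groups were apart and narrow, at 4888 ± 545 (SD, n = 4) and 9633 ± 296 (SD, n = 3), and it fell by 0.99 (limma, SE 0.12, adjusted p = 0.00133). Gstm2 measured 1191, 648, 1135 and 925 in the KO replicates and 2039, 2251 and 2176 in the WT columns. It fell by 1.18 on the log2 scale (limma, SE 0.20, adjusted p = 0.00373), again with no overlap.

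Gstm4 measured 561, 383, 411 and 398 in the KO replicates and 831, 959.7 and 888 in the WT columns, a log2 fold change of -1.04 (limma, SE 0.16, adjusted p = 0.0024). KO replicate 1 was the highest of its group but still below each WT column. Gstm6, a scarcer gene, measured 35.3, 29.1, 30.0 and 34.3 against 138, 178 and 285 in the WT columns, a log2 fold change of -2.54 (limma, SE 0.28, adjusted p = 0.000982). The KO values lay within 7 reads of each other while the WT columns spread over a wide range. Because these genes are close copies, reads may have been split among them or set aside as not unique, and their single values are uncertain. The same holds for any other member with a close copy.

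In Gstm5 and Gstm7 the size of the fall depended on WT column 4. Gstm7 measured 88.3, 55.0, 52.7 and 56.4 in the KO replicates and 161, 166 and 870.3 in the WT columns. The log2 fold change was -2.19 (limma, SE 0.56, adjusted p = 0.0176), and without WT column 4 it was -1.39 (adjusted p = 0.00839). Gstm5 measured 572, 398, 462 and 405 against 677, 810.0 and 1528. The Gstm5 log2 fold change was -1.05 (limma, SE 0.27, adjusted p = 0.0189), and -0.70 (adjusted p = 0.0267) without WT column 4. Its adjusted p was 0.0534 without KO replicate 2. The groups of both genes were apart, with WT column 4 the highest library in each.

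The alpha class enzymes Gsta3 and Gsta4 conjugate lipid peroxidation products, Gsta4 being the enzyme known for 4-hydroxynonenal. Gsta3 measured 849, 348, 632 and 543 in the KO replicates and 1857, 3076 and 6681 in the WT columns. The log2 fold change was -2.57 (limma, SE 0.43, adjusted p = 0.00325), which was -2.08 (adjusted p = 0.00527) without WT column 4. Gsta4 measured 110.4, 65.8, 108 and 52.4 against 219, 473 and 751. For this gene the log2 fold change was -2.40 (limma, SE 0.43, adjusted p = 0.00444), and -1.99 (adjusted p = 0.0107) without WT column 4. In both genes WT column 4 was highest and WT column 1 lowest, and no KO value reached any WT value.

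Gstk1, the kappa class enzyme of mitochondria and peroxisomes, measured 693, 355, 417 and 419 in the KO replicates and 1059.8, 1418 and 1426 in the WT columns. It fell with groups apart, to 0.354 of the WT level (limma, adjusted p = 0.00254). The theta, omega and pi classes did not pass the test. Gstt1, Gstt2 and Gstt3, neighbours on chromosome 10, had log2 fold changes of -0.64, -0.02 and -0.20, and their groups overlapped. These values moved with single libraries. Gstt1 passed without WT column 1, at -1.14 (limma, adjusted p = 0.0197). Without WT column 4 the log2 fold changes of Gstt1, Gstt2 and Gstt3 were -0.17, 0.38 and 0.16. Gsto1 had a log2 fold change of -0.29 (limma, adjusted p = 0.154) and Gsto2 stood at 0.499 of the WT level (adjusted p = 0.0624). Gstp1 measured 650.2, 259, 222 and 229.8 against 331, 573 and 744, so that KO replicate 1 stood among the WT columns and the other 3 below them. With that library the log2 fold change was -0.77 (limma, SE 0.42, adjusted p = 0.181) and -1.14 (adjusted p = 0.0243) without it. Together the 21 transferases took 0.0495% to 0.0747% of the gene reads in fat labelled KO and 0.140% to 0.196% in fat labelled WT, in the same libraries in which the adipocyte markers were low or high. The part of adipocyte number in these falls was not tested.

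**Figure D2:**
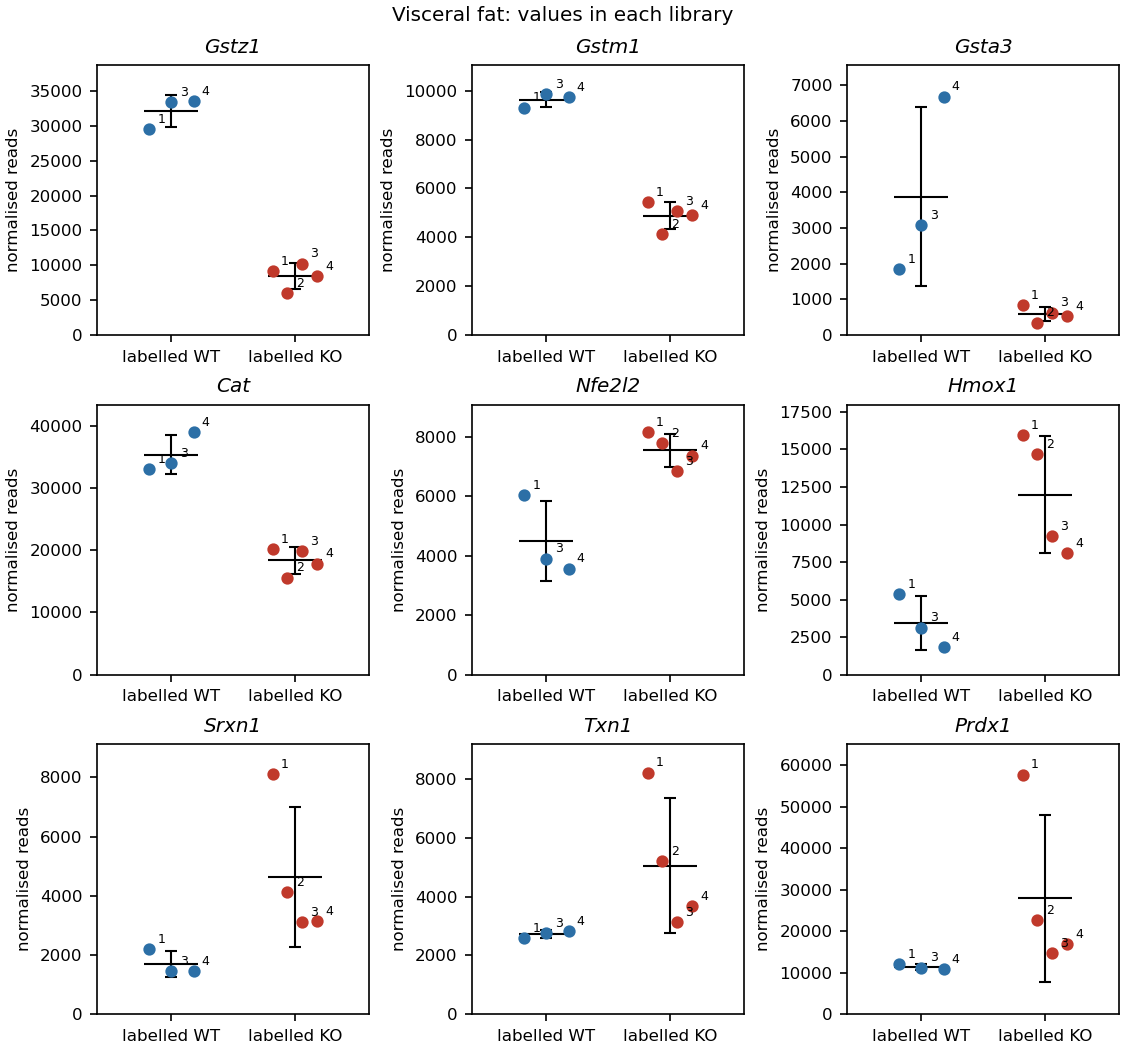
Normalised reads of 9 members in each visceral fat library (blue, labelled WT, with the column number; red, labelled KO, with the replicate number); the horizontal line is the mean and the bar is 1 SD, and each axis starts at 0. Gstz1, Gstm1, Gsta3 and Cat are lower in every library labelled KO, and Nfe2l2, Hmox1 and Srxn1 are higher in every one. KO replicate 1 is the highest KO library in each gene shown but Gstz1, reaching 57737 in Prdx1.

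Of the regulator pair, Nfe2l2 rose and Keap1 did not pass the test. Nfe2l2 (chromosome 2, 75675513 to 75704641, GRCm38) measured 8163, 7801, 6846 and 7377 in the KO replicates and 6047, 3905 and 3569.7 in the WT columns. All KO values were above all WT values, with WT column 1 the nearest. Its log2 fold change was 0.78 (limma, SE 0.18, adjusted p = 0.0129), and the adjusted p was 0.061 without WT column 3. Keap1, the adaptor that holds NRF2 down, measured 2021, 2083, 1960.2 and 1945 against 2069, 1935 and 2075. Those groups overlapped, and the 95% interval of the log2 fold change ran from -0.23 to 0.20.

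Of the NRF2 target enzymes, Hmox1 rose and Nqo1 did not pass the test. Hmox1, haem oxygenase 1 (chromosome 8, 75093621 to 75100589, GRCm38), measured 15935, 14687, 9206 and 8109 in the KO replicates and 5353, 3134 and 1853 in the WT columns. It had the highest fold change of the members tested, a log2 of 1.87 (limma, SE 0.37, adjusted p = 0.00637), and the call held when each library in turn was left out. Every KO value was above every WT value, and macrophage markers, with sums of 612004, 575917, 400610 and 503416 in the KO replicates and 202938, 96307 and 58629 in the WT columns, stood in the same order as Hmox1 except in KO replicates 3 and 4, where the order was the other way. The part of macrophage number was not tested. Nqo1, a quinone reductase, measured 346, 159.7, 127 and 118 against 194, 221 and 240.2. KO replicate 1 was above and the other KO replicates below every WT column, and the log2 fold change was -0.36 (limma, SE 0.35, adjusted p = 0.463) with that library and -0.70 (adjusted p = 0.0274) without it.

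None of the 4 genes of glutathione synthesis and recycling passed the test. Gclc, the catalytic subunit of the enzyme that sets the pace of glutathione synthesis, measured 1375, 1148, 1163 and 1226 in the KO replicates and 1156, 1156 and 1300.2 in the WT columns. Its 95% interval ran from -0.23 to 0.28 on the log2 scale. Gclm, the modifier subunit, measured 2018, 952, 1024 and 911 against 1109.7, 904 and 806. KO replicate 1 was far above every other fat library, and the log2 fold change was 0.31 (limma, SE 0.28, adjusted p = 0.411) with it and 0.04 (adjusted p = 0.825) without it. Gss, glutathione synthetase, and Gsr, glutathione reductase, had log2 fold changes of -0.38 and 0.21.

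In the thioredoxin system 2 of 3 genes passed the test, and all 3 had KO values above every WT value, beside 21.6% of all genes tested. Srxn1, sulfiredoxin, which repairs over-oxidised peroxiredoxins, measured 8102, 4132, 3111 and 3149 in the KO replicates and 2194, 1447 and 1457 in the WT columns. Its log2 fold change was 1.35 (limma, SE 0.33, adjusted p = 0.0151), with 1.04 (adjusted p = 0.01) without KO replicate 1, and the adjusted p was 0.0609 without WT column 3. Txnrd1, the cytosolic thioredoxin reductase, measured 8380.5, 5685, 4876 and 4929.9 against 4549.9, 3130.4 and 3092. It rose by a log2 of 0.72 (limma, SE 0.22, adjusted p = 0.0365), a call lost without KO replicate 2, WT column 3 or WT column 4. Txn1, thioredoxin itself, measured 8231, 5208, 3125 and 3678 against 2596, 2761 and 2837, with a log2 fold change of 0.79 that missed the threshold (limma, adjusted p = 0.0702).

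Catalase and the superoxide dismutases were lower in fat labelled KO, and 3 of 4 passed the test. Cat (chromosome 2, 103453849 to 103485160, GRCm38), the peroxisomal enzyme that splits hydrogen peroxide, measured 20175, 15574, 19828 and 17856 in the KO replicates and 33063, 34027 and 38983 in the WT columns. It fell by 0.95 on the log2 scale (limma, SE 0.16, adjusted p = 0.00313), with a wide gap between the groups. Sod3, the secreted dismutase, measured 9109, 7127, 13914 and 12162 against 27238, 23142 and 19139. It fell by 1.16 (limma, SE 0.24, adjusted p = 0.00803), and each KO value was below each WT value.

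Sod2, the mitochondrial dismutase, measured 4265, 3592, 4408 and 3404 against 9398, 6978 and 4593. WT column 4 came close to the KO replicates, and the log2 fold change of -0.78 (limma, SE 0.23, adjusted p = 0.0294) lost its call without KO replicate 2, KO replicate 4, WT column 1 or WT column 3. Sod1, the cytosolic one, measured 3001, 2071, 2002 and 2072 against 2791, 3112 and 3949. KO replicate 1 lay among the WT columns, and the log2 fold change was -0.53 (limma, SE 0.18, adjusted p = 0.052), or -0.67 (adjusted p = 0.0126) without it. The 4 genes took 0.0867% to 0.127% of gene reads in fat labelled KO and close to 0.2% in each WT column.

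Of the 6 peroxiredoxins 2 fell, none rose and 4 did not pass the test. Prdx6, the peroxiredoxin that also reduces phospholipid peroxides, measured 10493, 6756, 7754 and 6781 in the KO replicates and 16171, 17936 and 17364 in the WT columns. Prdx5, found in mitochondria and peroxisomes, measured 5992, 4608, 5269.7 and 4712 against 9372, 8959.9 and 7222. Both fell with groups apart, at log2 fold changes of -1.13 (limma, SE 0.17, adjusted p = 0.0024) and -0.73 (limma, SE 0.14, adjusted p = 0.00636). Prdx1, the abundant cytosolic peroxiredoxin (chromosome 4, 116685544 to 116700822, GRCm38), measured 57737, 22653, 14629.7 and 16900.0 against 12117, 11202 and 10883. Every KO value was above every WT value, yet KO replicate 1 held more than the other KO replicates together. Its log2 fold change of 1.07 (limma, SE 0.42, adjusted p = 0.0827) became 0.64 with a smaller spread (adjusted p = 0.0313) without that library. Prdx3, Prdx4 and Prdx2 had log2 fold changes of -0.57, 0.45 and 0.15 and did not pass.

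Among the glutathione peroxidases, Gpx4 fell, Gpx1 rose and 3 did not pass. Gpx4, which reduces lipid peroxides in membranes, measured 1141, 854, 1092 and 917 in the KO replicates and 1624, 1606 and 1728 in the WT columns. It fell by 0.73 on the log2 scale (limma, SE 0.13, adjusted p = 0.00417) with no overlap. Gpx1, the cytosolic peroxidase, measured 35489, 33201, 21252 and 26342 against 18958, 15749 and 19101. Its groups were apart, but the log2 fold change of 0.67 (limma, SE 0.21, adjusted p = 0.0358) lost its call in 6 of the 7 fits that left out 1 library. Gpx3, the secreted plasma peroxidase, measured 16051, 12376, 19185 and 14549 against 9919, 9304 and 19772, with WT column 4 the highest of all 7. Its log2 fold change was 0.33 (limma, adjusted p = 0.387), and 0.68 (adjusted p = 0.0331) without that column.

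Scaled to RPKM (reads per kilobase of the principal transcript, with library totals equalised), which allows genes to be ranked, the leading members in fat labelled WT were Gstz1 at 569 ± 61.0 (SD, n = 3), Gpx1 at 489 ± 47.3 and Cat at 397, the first 2 with overlapping spreads. In fat labelled KO they were Gpx1 at 842 ± 178 (SD, n = 4), Prdx1 at 378 and Gpx3 at 304, and Gstz1 stood at 159 ± 35.3. The spread of Prdx1 between KO replicates was too wide to place it above or below Gpx3. The order also depends on the length used. The principal transcript and all exon bases measured 1656 and 5088 bases for Gstz1, 1072 and 1441 for Gpx1, and 2613 on both for Cat. Hmox1 stood at 237 in fat labelled KO and 63.6 in fat labelled WT on the same scale. Levels of the scarcest tested members, such as Gsto2 and Gstm6, were about 1 or less in fat labelled KO.

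**Figure D3:**
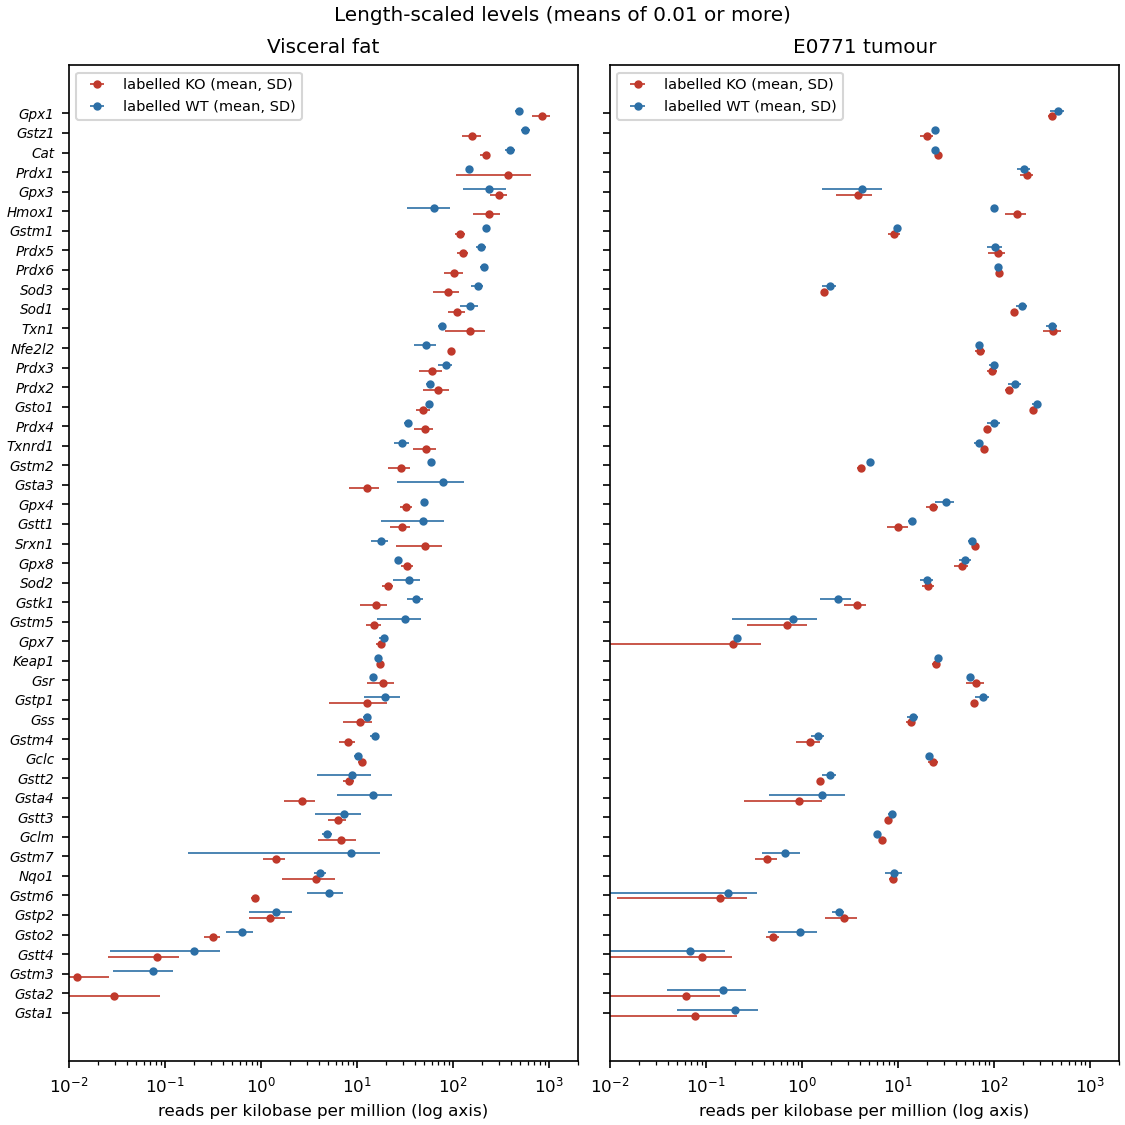
Length-scaled levels of the members (RPKM over gene reads, log axis) in visceral fat and E0771 tumours. Points are group means and bars 1 SD, red is labelled KO and blue is labelled WT. A lower bar that would reach 0 is cut short above 0. Genes are ordered by their mean in fat; Gstz1, Cat, Gpx3 and Sod3 are lower on this scale in the tumours than in fat, while Gpx1 and Prdx1 are high in both.

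KO replicate 1 was the highest of the 4 fat libraries labelled KO for 37 of the 43 members (86%), beside 34.5% of all genes tested. Scaled to CPM over gene reads instead, it was highest for 35 members (81.4%), beside 33.7% of all genes. Its value over the mean of KO replicates 2 to 4 had a median of 1.43 for the members and 1.00 for all genes. The ratio was 3.20 for Prdx1, 2.75 for Gstp1, 2.56 for Nqo1, 2.34 for Srxn1, 2.10 for Gclm and 2.06 for Txn1, and it was 1.62 for Txnrd1, 1.49 for Hmox1, 1.17 for Gclc, 1.11 for Nfe2l2, 1.04 for Gpx3, 1.01 for Keap1 and 0.823 for Sod3. On the list of other NRF2 partners and targets KO replicate 1 was highest for 12 of 20 genes, with a median ratio of 1.24. It was highest for 6 of 10 genes of NADPH supply (median ratio 1.14) and 11 of 19 of glutathione supply and breakdown (1.14). For other thioredoxin, methionine sulfoxide and selenoprotein genes it was 9 of 15 (1.15), for oxidases 6 of 12 (0.98) and for microsomal transferases 3 of 7 (1.05). T cell markers had a median ratio of 1.31, macrophage markers one of 1.18 and adipocyte markers one of 1.09. Mast cell markers had one of 2.60, with sums of 20111 in KO replicate 1 and 5061 to 12682 in the other KO replicates. The part of mast cells, and of any other feature of that library, was not tested. By Dixon's ratio KO replicate 1 was set apart above its group for 5 members (Gstm4, Gstm7, Gstp1, Gclm and Sod1), beside 2.07% of all genes. Left out, it moved the members that fell from 16 to 22, the added ones being Gsto1, Gstp1, Nqo1, Gss, Sod1 and Prdx3, and the members that rose stayed at 5 with Prdx1 in place of Gpx1.

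**Figure D4:**
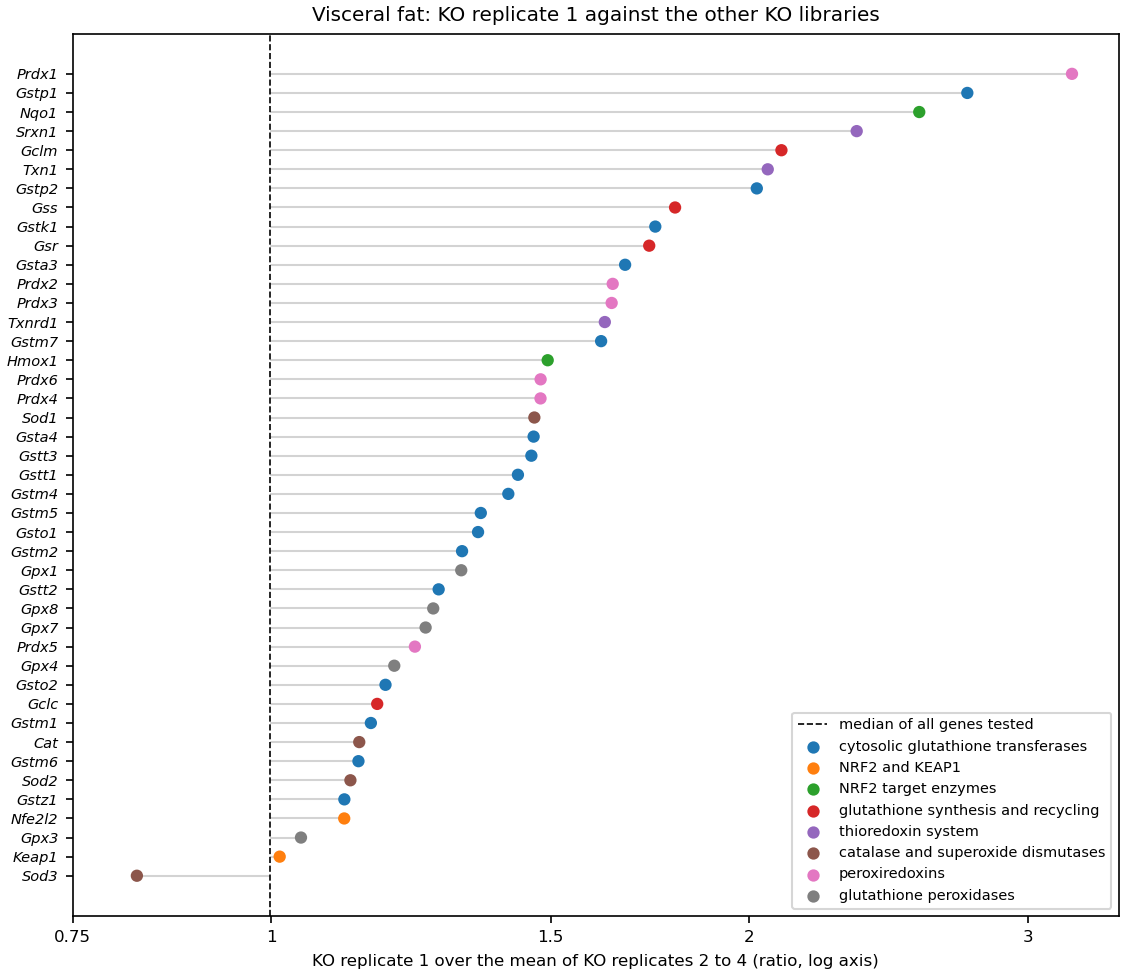
Ratio of KO replicate 1 to the mean of KO replicates 2 to 4 in visceral fat for the 43 members tested (log axis), coloured by role; the dashed line is the median of all genes tested. Prdx1 leads at 3.20, and Sod3 is the only member left of the line.

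The wider pathway was read from 6 further lists, whose counts stand beside 16.8% of all genes tested that rose and 17.4% that fell. Of 7 microsomal transferases and their kin, 4 fell, with Mgst1, the abundant membrane-bound transferase, at a log2 fold change of -1.10 (limma, adjusted p = 0.00424), and only Hpgds rose. Hpgds is the prostaglandin D synthase, known from mast cells and macrophages and itself a sigma class glutathione transferase. It measured 6921, 8405, 6465 and 7633 in the KO replicates and 1665, 321 and 349.5 in the WT columns. Its log2 fold change of 3.68 (limma, SE 0.51, adjusted p = 0.00179) had the opposite sign to those of the member transferases. Its symbol does not start with Gst, so the choosing rule left it out of them. Of 20 partners, antagonists and other reported targets of NRF2 tested, 6 rose and 2 fell, which became 3 and 1 without WT column 3. They include Akr1b8, an aldose reductase relative, at a log2 of 2.32 (adjusted p = 0.00395) and Ftl1, the ferritin light chain, at 1.61 (adjusted p = 0.00343).

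Among 12 genes of the phagocyte oxidase and other oxidases, which make superoxide, peroxide or nitric oxide, 7 rose and 3 fell. The phagocyte oxidase subunits Cyba, Ncf4 and Cybb rose by log2 values of 1.93, 1.92 and 1.91 in the libraries with high macrophage markers, while Aox1 and Nos2 had log2 fold changes of -1.41 and -1.43, the Nos2 call being lost without KO replicate 1, KO replicate 2 or WT column 3. The last to fall was Duox2, a scarce gene at means of 6.96 and 37.2. In NADPH supply 1 of 10 genes rose (0 without WT column 3) and 3 fell (5 without KO replicate 1), led by Me1, malic enzyme, at a log2 of -1.27 (limma, adjusted p = 0.00152). Of 19 genes of glutathione supply and breakdown 2 rose and 4 fell, with Anpep, an aminopeptidase of the cell surface, at a log2 of 2.60. Of 15 other thioredoxin, methionine sulfoxide and selenoprotein genes 2 rose (1 without WT column 3) and 7 fell. Over all genes tested 16.8% rose and 17.4% fell, and no list was tested as a set.

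In the tumours none of the 40 members tested passed edgeR's quasi-likelihood test at an adjusted p of 0.05, beside 0% of all 13109 genes. At an unadjusted p under 0.05 there were 4 members (Hmox1, Gpx4, Gstt1 and Gstp1), or 10% of them, beside 6.9% of all genes. The groups did not overlap for 6 members (15%), beside 10.6% of all genes: Hmox1 and Gclm were higher and Gstm2, Gstt1, Gstt2 and Gstz1 lower in tumours of hosts labelled KO. Gsta1, Gsta2, Gsta3, Gstm3, Gstm6, Gstt4 and Gpx7 had at most 13 reads in any tumour library and were not tested.

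Hmox1 had the lowest p of the members in the tumours. It measured 9701, 8152 and 5814 normalised counts in KO hosts 1 to 3 and 4393, 4382 and 4882 in WT hosts 1 to 3. All KO hosts were above all WT hosts, with KO host 3 the nearest, and the log2 fold change was 0.79 (edgeR, SE 0.17, adjusted p = 0.349; exact permutation p = 0.1, two-sided, the smallest that 3 against 3 allows). DESeq2, which called 41 of 16949 genes as rising (0.242%), gave Hmox1 an adjusted p of 0.00445, while edgeR gave 0.0348 with no filter on low counts and 0.0462 without KO host 3. Over its alternatives the adjusted p ran from 0.00445 to 1.00. Macrophage markers summed to 111481, 86272 and 76904 in tumours of KO hosts, the same order as Hmox1. In WT hosts they summed to 88290, 84675 and 82902, where the host of highest Hmox1 had the lowest sum, and their part was not tested.

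The other named tumour members had log2 fold changes nearer to 0. Gpx4 measured 659, 538 and 721 in KO hosts and 930.5, 1055 and 653 in WT hosts, overlapping through WT host 3, with a log2 fold change of -0.46 (edgeR, SE 0.19, adjusted p = 0.705). Gstt1 measured 368, 219.8 and 322 against 429, 453 and 379.6, apart by a small gap, at -0.47 (edgeR, SE 0.20, adjusted p = 0.712). Gstp1 measured 1494, 1391 and 1486 against 2065, 1896 and 1487, at -0.32 (edgeR, SE 0.14, adjusted p = 0.717). WT host 3 lay within the KO hosts for this gene, as it did in Sod1 at 2947, 3152 and 2989.9 against 4027, 3781 and 3064, a log2 fold change of -0.26 (edgeR, adjusted p = 0.753).

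Gstz1, so different between the fat groups, measured 1115, 815 and 970.3 in tumours of KO hosts and 1149, 1244 and 1136 in those of WT hosts. Its groups were apart by a narrow margin and its log2 fold change was -0.28 (edgeR, SE 0.14, adjusted p = 0.757). Of the 15 transferases tested 13 had a log2 fold change below 0, with a median of -0.31 beside 0.00 for all genes. Nfe2l2, Keap1, Nqo1, Gclc and Gclm had log2 fold changes of 0.05, -0.07, -0.05, 0.15 and 0.17. The widest of their 95% intervals, that of Nqo1, ran from -0.45 to 0.35.

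By mean RPKM over all tumour libraries Gpx1 led the members at 432, with Txn1 next at 407. Over all fat libraries Gpx1 also led. In the tumours the spreads of Gpx1 and Txn1 overlapped, and Txn1 had the higher mean in KO hosts. In RPKM, Gpx1 stood at 401 and 462 in tumours of KO and WT hosts, Txn1 at 412 and 402 and Gsto1, the omega class transferase, at 253 and 279. Gstz1 stood at 20.2 and 24.5, Cat at 25.9 and 24.2 and Gpx3 at 3.81 and 4.26. The tables were normalised separately and the tissues were not compared by a test, and the difference between the KO effects of fat and tumour was not tested either.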

How the data were processed

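The fat table was deposited as a signal per gene symbol: per the file's values, the authors divided each library's read counts by 1 factor per library. All 117220 values above 0 were whole multiples of a library's step within 0.001 of a read, so reads could be recovered. The tumour table holds read counts deposited by the authors with no normalisation. Its summary lines, 66.7% to 72.2% of entries per library, stayed out. Among those lines, alignments that were not unique made up 59.1% to 63.8% of entries, so members with close copies may be undercounted. The mouse build mm10 and the tools TopHat, CASAVA and DESeq2 are named in the submitters' processing notes. Strand and overlap handling are not given in the sources used here.

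Fat was tested with limma 3.58.1 (trend, log2 of the value plus 1) on genes that reached 10 in 3 or more libraries; fold changes of low genes are understated on that scale. Tumours were tested with edgeR 4.0.16 quasi-likelihood after TMM and filterByExpr, with normalised counts set to the mean library size. DESeq2 1.42.0 was an alternative (R 4.3.3). P-values were adjusted by Benjamini-Hochberg over all genes tested. The scripts were tested on simulated data. Other alternatives changed the pseudocount, the filter, the scaling and, in turn, left out each library. The WT fat columns could not be tied to replicate labels, so fat has no paired fit. Length scaling used the principal GENCODE M21 transcript, the longest where several ranked equally, found for all 47 members. Ranks by RPKM in both tissues depend on that choice.

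Members, lists and the naming rule were chosen with earlier results of these data known. Named in fat were members that passed, did not overlap and averaged 50 or more, in tumours the 6 of lowest p, and in both Nfe2l2, Keap1, Nqo1, Hmox1, Gclc and Gclm; the other genes given with values were picked after their values were seen. Marker lists covered adipocytes, macrophages, neutrophils, T cells, mast cells, endothelium, fibroblasts, mesothelium, red blood cells, sperm, epididymis, liver, pancreas and epithelium.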

Additional observations from a re-analysis of the deposited data

Results flagged for a closer look

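In 4 libraries of fat labelled KO, KO replicate 1 lay far above the other 3 for 5 members: Gstm4 at 560.8 normalised reads, Gstm7 at 88.3, Gstp1 at 650.2, Gclm at 2018 and Sod1 at 3001. In each, its gap to the next library, divided by the range of the group, passed Dixon's 95% limit for 4 samples. Chance flags about 1 in 20 groups, and over all genes tested 6.51% of groups had a library set apart on either side, beside 11.6% of the 43 members, each of them with KO replicate 1 on the high side. The cause was not tested.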

How the results depend on the processing

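In fat, each library was left out in turn. The 5 members that rose became 1 to 8 and the 16 that fell became 14 to 22. Without KO replicate 2, KO replicate 3 and WT column 3 the first count was 3, 8 and 1. Over all genes tested, 2430 rose and 2517 fell, which became 1575 to 2691 and 1490 to 2567. In the tumours, the 0 members that rose became 1 with DESeq2 and 1 with no filter, and 0 to 1 with a library left out (1 without KO host 3), each time Hmox1; the 0 that fell stayed 0. Among the named members, log2 fold changes near 0 turned sign in 7 cases with a library left out (other members that did not pass also did): in fat Keap1 without WT column 4 (0.000577; range from -0.0496), and Gclc without KO replicate 1 (-0.0287), WT column 1 (-0.00134) and WT column 3 (-0.00127; range up to 0.0833); in tumours Nfe2l2 without KO host 2 (-0.0384; range up to 0.116), and Nqo1 without KO host 1 (0.0157) and WT host 1 (0.119; range from -0.153). With the replicate block, the tumour counts stayed at 0 and 0 and Hmox1 had a log2 fold change of 0.76 (edgeR, adjusted p = 0.552). Same-numbered tumour libraries deviated with correlations of -0.229, 0.0118 and -0.22. Pairing by number was thus not shown, and so few libraries cannot exclude it. The pseudocounts of 0.5 and 8, TMM factors, edgeR on recovered reads and DESeq2 on recovered reads changed no call of a named member in fat. In fat 4 members and in tumours 7 had too few reads to be tested. The cause of these changes was not tested.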

Other observations

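Over all genes tested in fat, 16.8% rose and 17.4% fell. Among the other marker lists in fat (limma), 6 of 8 mast cell markers rose, and 5 to 7 did when each library was left out in turn. Of mesothelial markers 5 of 7 fell (1 to 6), of fibroblast markers 3 of 9 rose (2 to 6, and 7 with DESeq2), of neutrophil markers 2 of 6 rose (0 to 3) and of T cell markers 1 of 7 rose (0 to 1). Of red blood cell genes 1 of 3 tested fell (0 to 1), as did the 1 sperm gene tested (0 to 1), while 0 of 8 liver genes, 0 of 1 pancreas gene and 0 of 4 epithelial genes passed. No epididymis gene reached the filter. Genes of liver summed to 9147 in WT column 4 and to 660.1 to 3353 in the other fat libraries. Genes of sperm and testis summed to 791, 265 and 65.0 in WT columns 1, 3 and 4 and to 3.31 to 17.3 in the KO replicates. Keratin-bearing epithelial genes summed to 849.6 in WT column 4 and to 125 to 287 elsewhere. In the tumours, summed mast cell markers ran from 3308 to 11070 in KO hosts and from 965 to 2080 in WT hosts. An unadjusted p under 0.05 (edgeR) was reached by 7 of 7 tested markers, beside 6.9% of all genes, and none passed the adjusted test.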
